A study of Mus musculus with 20 samples.

Results

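The AP-1 family genes followed here were Fos, Fosb, Fosl1 and Fosl2, Jun, Junb and Jund, Atf3, and the small Maf genes Maff and Mafk. Their accessible elements were taken as all merged regions within 20 kb of the 10 gene spans on GRCm38. Peaks of all 20 libraries that shared at least 1 bp were merged, and 122 of the 101352 merged regions met the rule. A call means a peak anywhere in the merged region, and that peak need not reach a gene start inside it. Elements are numbered along the chromosome within each locus, so that Fosl1_e4 is the fourth from the low-coordinate side.

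Accessible chromatin had been profiled by ATAC-seq in C2C12, a mouse myoblast line that fuses into myotubes when it differentiates. Cells were wild type (WT) or Setd2 knockout (KO), Setd2 being the enzyme that trimethylates lysine 36 of histone H3. The WT groups were day 0 (D0, medium not named), day 1 control (D1 CTL), day 1 under methionine restriction (D1 MR), day 5 control (D5 CTL) and day 5 restricted (D5 MR). The KO groups were the same 5, each with 2 libraries, 1 from KO line 1 and 1 from KO line 2. A KO group is thus a pair of lines measured once each. Nothing in the labels says whether WT replicates 1 and 2 were separate cultures, so the p-values measure the spread between these libraries, which may be technical.

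AP-1 is a dimer of basic leucine zipper proteins. Jun proteins pair with themselves or with Fos proteins, while Fos proteins need a Jun partner, and the dimer binds a short palindrome in enhancers and promoters. Several of the genes, Fos and Jun among them, are classic immediate early genes of serum and stress signalling. In myoblasts AP-1 is associated with proliferation and with restraint of the myogenic programme. Small Maf proteins carry the zipper but no activation domain, and Atf3 pairs with Jun proteins at related sites.

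The lists held 20847 to 69881 peaks in 18 libraries. The D5 libraries of KO line 1 held 644 and 1881 peaks, with 2 and 5 AP-1 elements, so statements on KO at D5 rest on line 2 alone. Counts out of 18 leave out those libraries. WT lists were shorter at D5 (20847 to 39538 peaks) than at D1 (45545 to 69881). List length thus moved with day, and its part in the results on day was not tested beyond the equal-length lists given beside them. Of 7 muscle markers, the Des start was called in all 18 libraries, and the Myod1 gene end in 17. The Myog start was called in 8 of 10 WT libraries and in none of the 8 KO libraries of usual length. Among the same libraries the Acta1 start had a call in 8 WT and 1 KO, and the Ckm start in 4 WT and 0 KO. At D0 and D1, with 6 libraries per genotype, the Myf5 start had a call in 6 WT and 2 KO, and the Mymk gene end in 6 WT and 4 KO. None of 4 markers of other cell types (Ptprc, Pecam1, Epcam, Cdh5) had a peak at a gene start or end.

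The promoters below are those with a cAMP-response-type or Jun-type motif. They are shown because each lay wholly within the merged span of an element called in all 18 libraries. The peak of a single library can be shorter than that span. The printed bases and motifs thus need not lie under a peak in every library. Each line holds the 250 bases before the annotated start, 5′ to 3′ on the gene's strand, from RefSeq on GRCm38.p6. Capitals mark TGACGT, TGACGTCA or TGACATCA on either strand.
Fos, chr12:85473640-85473889, + strand: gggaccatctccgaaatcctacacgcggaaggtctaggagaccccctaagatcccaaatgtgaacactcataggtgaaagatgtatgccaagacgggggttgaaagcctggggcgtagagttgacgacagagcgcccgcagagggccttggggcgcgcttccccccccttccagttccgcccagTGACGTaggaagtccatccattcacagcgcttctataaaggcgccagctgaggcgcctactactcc
Jun, chr4:95052223-95052472, - strand: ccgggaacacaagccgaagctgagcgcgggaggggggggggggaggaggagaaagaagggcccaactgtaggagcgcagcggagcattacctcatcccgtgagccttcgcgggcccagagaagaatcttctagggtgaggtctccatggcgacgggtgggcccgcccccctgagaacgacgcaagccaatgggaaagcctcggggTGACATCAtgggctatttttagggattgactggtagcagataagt
Atf3, chr1:191183334-191183583, - strand: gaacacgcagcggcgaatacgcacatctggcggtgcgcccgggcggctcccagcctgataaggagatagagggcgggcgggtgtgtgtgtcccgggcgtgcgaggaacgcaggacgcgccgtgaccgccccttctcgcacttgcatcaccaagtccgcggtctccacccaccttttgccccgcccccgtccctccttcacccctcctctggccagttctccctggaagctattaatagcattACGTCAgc
Maff at its second start, chr15:79347270-79347519, + strand: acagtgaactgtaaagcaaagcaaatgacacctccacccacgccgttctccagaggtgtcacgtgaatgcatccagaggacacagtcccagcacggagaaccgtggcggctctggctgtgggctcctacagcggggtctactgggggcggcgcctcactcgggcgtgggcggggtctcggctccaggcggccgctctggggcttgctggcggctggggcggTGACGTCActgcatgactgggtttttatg
Maff at the third start, chr15:79348152-79348401, + strand: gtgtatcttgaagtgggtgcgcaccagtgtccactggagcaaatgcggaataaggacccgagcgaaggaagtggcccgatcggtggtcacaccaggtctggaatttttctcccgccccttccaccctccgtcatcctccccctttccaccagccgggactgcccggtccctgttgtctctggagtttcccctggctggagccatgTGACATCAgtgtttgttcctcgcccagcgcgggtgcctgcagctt

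Promoters from 250 bases before to 50 bases after the start were at hand for 9 of the 10 genes, 11 promoters in all. In Fos the first base of TGACGT lay at -66 from the start. In Jun the first base of TGACATCA lay at -45, as it did at the third Maff start. The second Maff start had TGACGTCA at -29, which holds TGACGT on both strands, at -29 and -27. Atf3 had TGACGT on the opposite strand, at -8. Among all 32619 promoters of this length, 7.56% held TGACGT, 3.18% held TGACATCA and 1.8% held TGACGTCA. The AP-1 palindrome, searched as TGANTCA with any central base, was in 7.85% of all promoters and in 0 of the 11. The serum response CArG box was in 1.64% of all and in 0 of the 11 windows. Sites further from the start were not searched, so the genes may carry either motif outside these windows. The promoters of the family had a median GC content of 61.3%, against 53% for all promoters, and ranged from 46.7% in Jund to 68.3% in Fosb and Mafk.

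Every locus was accessible in all 18 libraries. Of the 122 elements, 29 (23.8%) were called in all 18, against 11% of all merged regions, and 24 (19.7%) were called in 1 library, against 20.4% of all regions. Protein-coding genes had a median of 4 elements within 20 kb. Junb had 24 elements and Fosl1 22, while Mafk and Jund had 13 each, Maff 12, Fosb 10, Jun 8, Fos and Fosl2 7 each, and Atf3 6. Of the 122, 17 elements lay within 1 kb of the start of another gene, 6 at Junb and 5 at Fosl1, and 33 overlapped the span of a family gene.

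**Figure D1:**
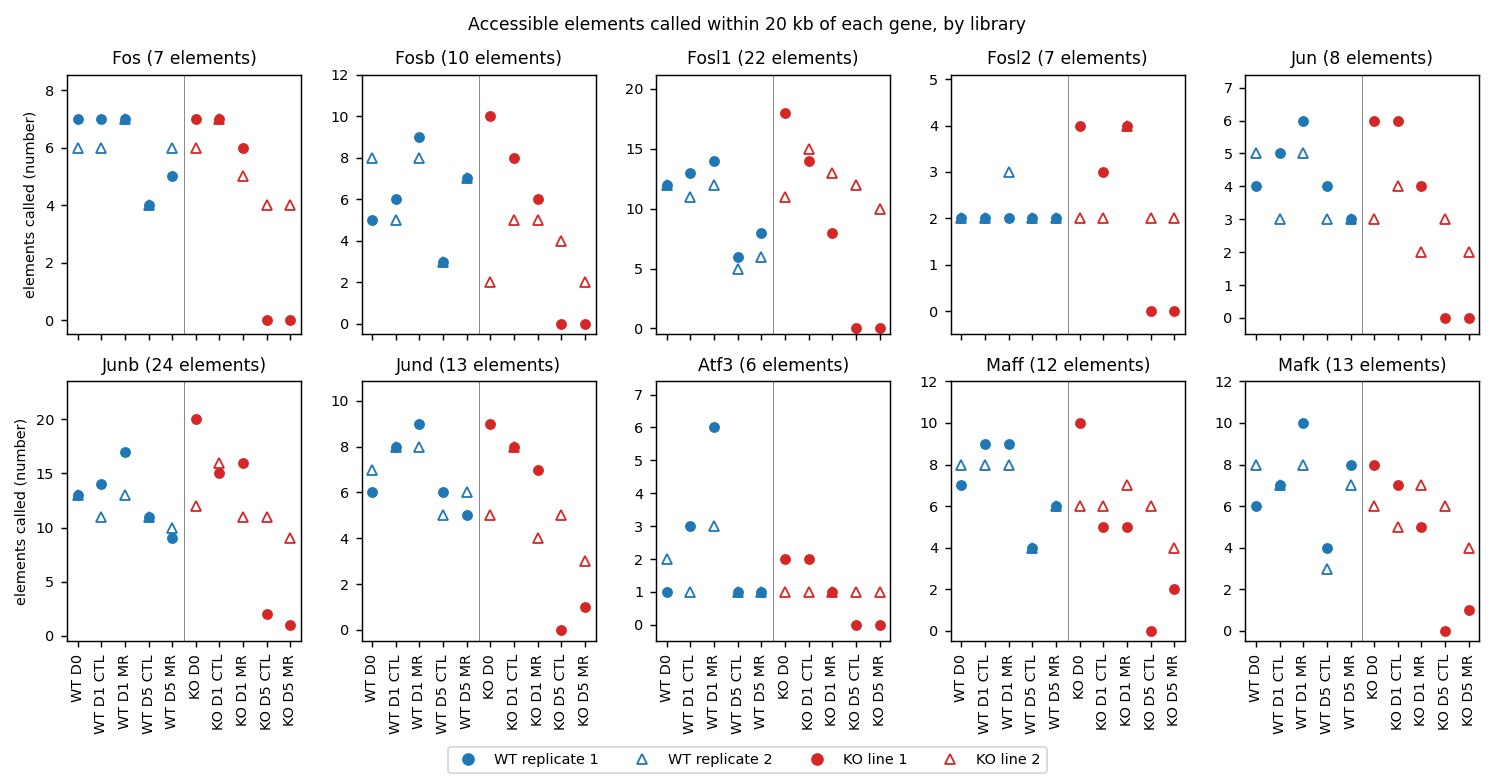
Number of elements called within 20 kb of each gene (y axis) in each group (x axis); each point is 1 library, filled circles for WT replicate 1 and KO line 1, open triangles for WT replicate 2 and KO line 2. In WT, Fosl1 went from 11 to 14 elements at D1 to 5 to 8 at D5, while KO line 2 had 12 and 10 at D5; the KO line 1 points at D5 come from the lists of 644 and 1881 peaks.

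Within the Fos family, Fos, the prototype serum-induced member, had the steadiest locus, with 4 of 7 elements called in all 18 libraries. Fos_e3 (12:85473496-85474712) covered the start. Its rank by the authors' p-value within its own list had a median at the top 35.9%, from 16.2% in KO D0 line 1 to 68.4% in KO D5 CTL line 2. Fos_e2 (12:85472074-85472627), 1.54 kb before the start, was stronger, with a median at the top 7.35%. Fosb, which has an activation domain like that of Fos, had no element over its start. Fosb_e7 (7:19310302-19310477), 257 bp away, was called in 9 of 18 libraries, and the steady Fosb element was Fosb_e6 (7:19307853-19308876) within the gene, called in 18.

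Fosl1 encodes Fra-1, a Fos protein without that activation domain. Its strongest element, Fosl1_e8 (19:5444611-5445398), lay 2.69 kb below the low-coordinate gene end and had a median at the top 5.22%. No annotated start was at hand for Fosl1. The element over its low-coordinate end, Fosl1_e9 (19:5447556-5447956), was called in 14 of 18. Fosl2 encodes Fra-2. It had 2 elements in all 18 libraries, Fosl2_e2 (5:32133647-32133931) at a median of the top 4.48% and Fosl2_e3 (5:32134984-32136136), 336 bp before the start, at the top 11.3%. The other 5 Fosl2 elements were called in 1 to 3 libraries each.

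Jun, whose protein is the main partner of Fos, had the element Jun_e5 (4:95051987-95052902) over its start, called in all 18 libraries, at a median of the top 12.4%. Junb, often an antagonist of Jun, had Junb_e14 (8:84978401-84978947) over its start, called in 17 of 18, all but KO D0 line 2. The strongest Junb element was Junb_e16 (8:84981074-84981486), at a median of the top 3.25% and a best rank at the top 0.445%. Jund, the member least tied to serum induction, had its element Jund_e5 (8:70698353-70699814) 614 bp from the annotated start, in 18 of 18. Atf3, a stress-induced repressor, had 1 steady element, Atf3_e4 (1:191182389-191183924), 1536 bp long and over the start, at a median of the top 17.5%. Its other 5 elements were called in 1 to 4 libraries, and WT D1 MR replicate 1 had all 6.

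Maff and Mafk encode small Mafs. The merged span of Maff_e7 (15:79347188-79348513) held the second and the third Maff starts. It was called in all 18 libraries, at a median of the top 56.3%, with peaks that covered 58 to 1325 of its bases. Maff_e6 (15:79346127-79346697), over the first start, was called in 8. The strongest element of the family was Maff_e2 (15:79328076-79328567), at a median of the top 0.61%, within 1 kb of the start of Pla2g6. Mafk_e4 (5:139791283-139791589) spanned the Mafk start and was called in 16 of 18, missing 1 library of WT D5 CTL and 1 of KO D5 MR.

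Day 5 was compared with day 1 in WT, to follow the loci through differentiation. The number of called elements fell at 6 of the 10 loci, and 45.5% of all 17452 protein-coding genes tested fell in this comparison. The test was limma on log2(elements + 1), with Benjamini-Hochberg adjustment. The median difference was -0.49 over the 10 loci and -0.54 over all genes. A share of 6 in 10 is thus read against a background in which nearly as large a share fell.

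Fosl1 had 13 and 11 called elements in WT D1 CTL, and 14 and 12 in D1 MR. It had 6 and 5 in D5 CTL, and 8 and 6 in D5 MR. All 4 D5 values lay below all 4 D1 values, a limma difference of -0.91 (95% interval -1.32 to -0.50, adjusted p = 0.0054). Atf3 fell by 0.95 (limma adjusted p = 0.0229). It had 3, 1, 6 and 3 elements in the WT D1 libraries and 1 in each WT D5 library, so the groups touched at 1.

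Maff had 9, 8, 9 and 8 elements at D1 and 4, 4, 6 and 6 at D5 (-0.68, limma adjusted p = 0.00751). Fos had 7, 6, 7 and 7 at D1 and 4, 4, 5 and 6 at D5 (-0.44, limma adjusted p = 0.00462). Mafk (-0.53, limma adjusted p = 0.0238) and Jund (-0.51, limma adjusted p = 0.0481) fell as well. Mafk overlapped between the days in the restricted medium, with 10 and 8 elements at D1 and 8 and 7 at D5.

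Fosb, Fosl2, Jun and Junb did not pass. Their limma differences were -0.47, -0.10, -0.41 and -0.38, with adjusted p between 0.0937 and 0.613. When each list was held to its 20000 strongest peaks, 0 of the 10 loci passed, and of 15487 genes 521 fell and 598 rose. On those lists the Jund difference turned to 0.54 and that of Mafk to 0.08, the differences of Maff and Atf3 were 0, and that of Fosl1 was -0.29. Without WT replicate 1, or without replicate 2, 0 passed.

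Of single elements, 7 were called in 4 of 4 WT D1 libraries and 0 of 4 at D5. They were Fosb_e2, Fosl1_e4, Fosl1_e9, Fosl1_e10, Jund_e7, Maff_e4 and Mafk_e2. The reverse held for 0 elements. Of all 79152 regions called in these libraries, 7.17% showed the first pattern and 0.0846% the second. With 4 libraries against 4 in 2 media there are 36 arrangements, the smallest exact permutation p is 2 in 36, and no element could pass 0.05. With the 20000 strongest peaks of each list the count was 0, and without WT replicate 2 it was 17.

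**Figure D2:**
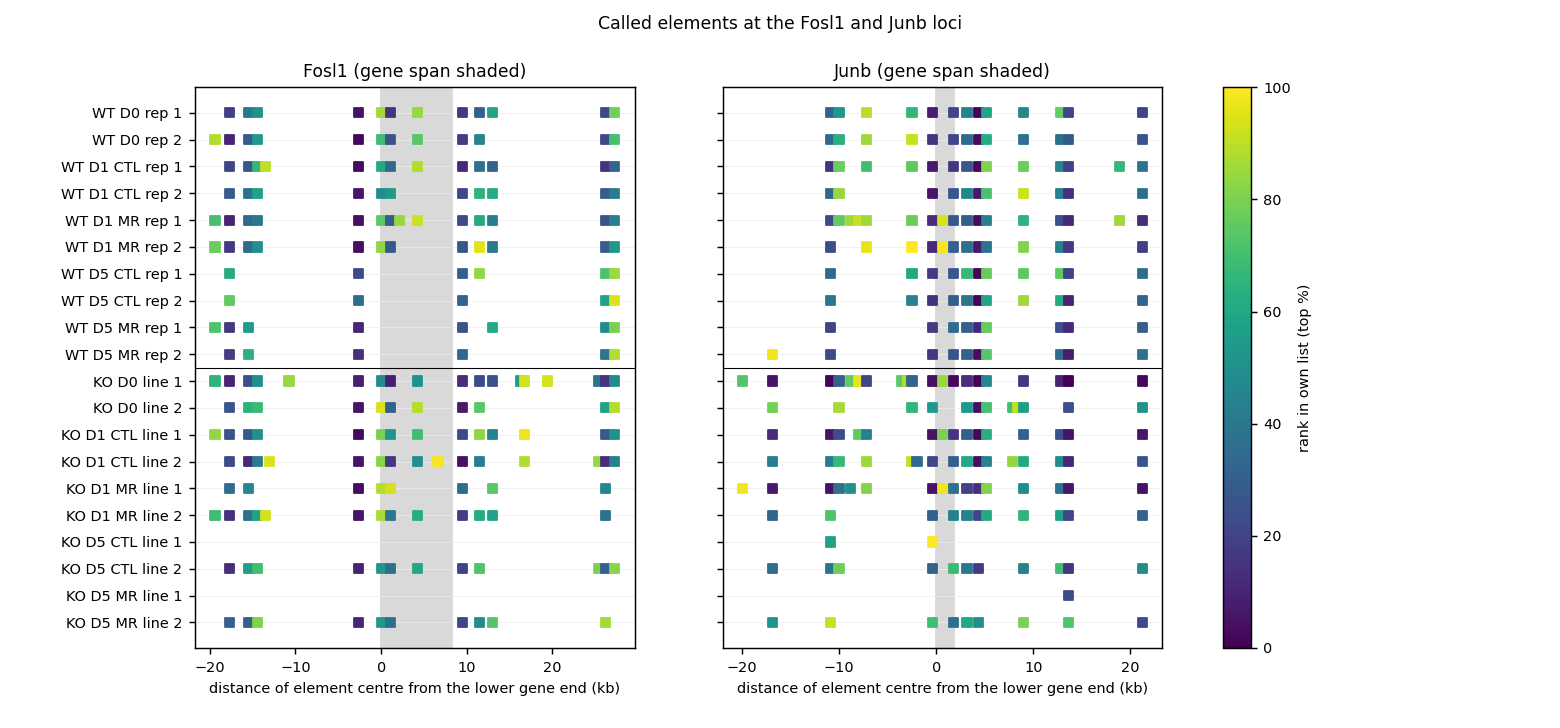
Called elements at Fosl1 (left) and Junb (right) by distance of the element centre from the low-coordinate gene end (x axis, kb) in each library (rows); colour gives the rank within that library's list, in top percent. At Fosl1 the WT D5 rows have gaps at -14.4, 0.06 and 1.09 kb that the KO line 2 rows at D5 do not. At Junb the element at -16.9 kb is filled in 1 WT row and in the KO rows other than line 1 at D5.

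The 3 Fosl1 elements without a call in WT at D5 were present in KO line 2. Fosl1_e4 (19:5432836-5433753) had −log10 p-values of 7.95 and 8.29 in WT D1 CTL and of 13 and 10.7 in WT D1 MR, as the authors deposited them. In KO D5 line 2 they were 5.91 in CTL and 5.05 in MR. Fosl1_e9, over the gene end, had 8.79, 9.58, 6.38 and 5.84 in the same WT D1 libraries, and 7.34 and 6.85 in KO D5 line 2. These are weak peaks, most of them in the lower part of their lists.

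Fosl1_e10 (19:5448547-5449024), within the gene, was the strongest of the 3, with 14.6 and 8.73 in WT D1 CTL and 18.2 and 17.7 in WT D1 MR. It had 9.42 and 8.64 in KO D5 line 2, where it ranked at the top 36.4% and 36.5%. In WT at D5 it was called in 0 of 4 libraries. The lists there held 22465 and 20847 peaks in CTL and 39538 and 39263 in MR, and those of KO D5 line 2 held 29963 in CTL and 22062 in MR. At the whole Fosl1 locus, KO line 2 had 12 and 10 elements at D5, and WT had 5 to 8, without overlap.

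Of all 5679 regions called in 4 of 4 WT D1 and 0 of 4 WT D5 libraries, 289 (5.09%) were in both KO line 2 libraries at D5, as were 3 of the 7 AP-1 elements. Of the 70 AP-1 elements called in any of the 6 libraries of WT and KO line 2 at D5, 3 were in both KO and 0 of 4 WT libraries. That pattern held for 3.64% of all 49658 regions. The reverse pattern held for 2, against 5.97% of all. Across the family the share was near the background, and all 3 elements were at Fosl1. With the 20000 strongest peaks of each list the counts were 5 and 2 of 56 AP-1 elements called, against 7.29% and 6.66% of 33591 regions, and 3 of the 5 were at Fosl1. These libraries come from 1 line, so line and genotype cannot be told apart, and there was no test. Muscle markers differed between the same libraries. The Myog, Acta1 and Ckm starts and the Mymk gene end were called in 0 of 2 KO line 2 libraries at D5, and in WT at D5 in 4, 4, 2 and 4 of 4. Their part in the Fosl1 result was not tested.

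**Figure D3:**
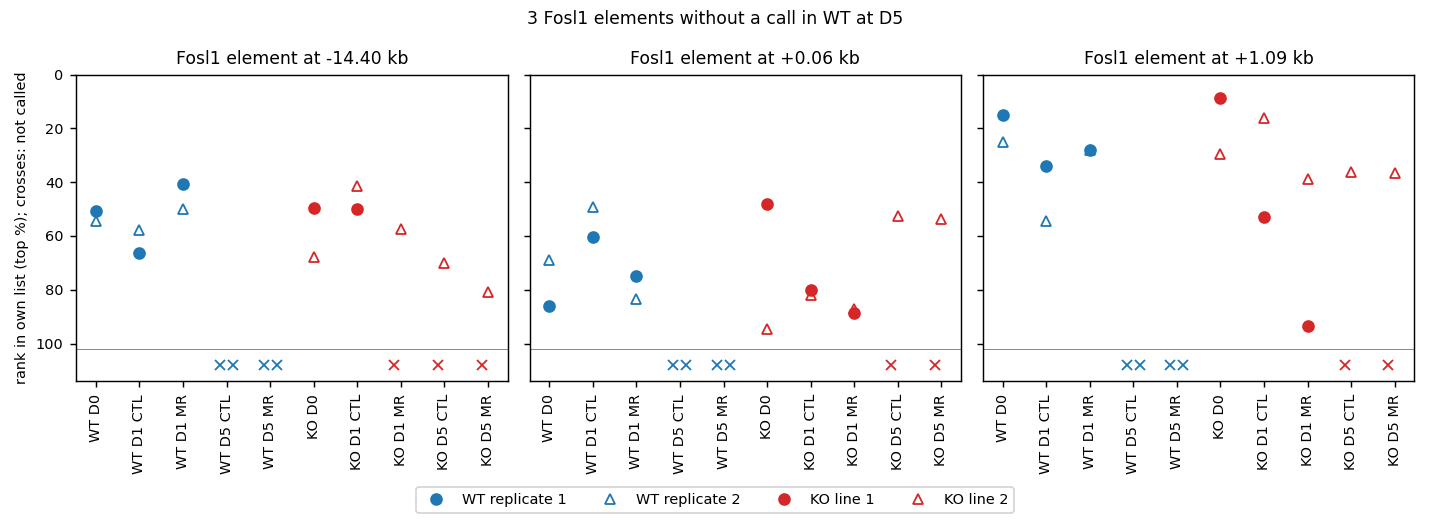
Rank within its own list (y axis, top percent, strongest at the top) of Fosl1_e4, Fosl1_e9 and Fosl1_e10 in each group (x axis); symbols as for the counts per locus, and crosses mark libraries without a call. The 4 WT D5 libraries are crosses in every panel, and the KO line 2 triangles at D5 lie at the top 69.9% and 80.9%, 52.7% and 53.6%, and 36.4% and 36.5%.

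KO was compared with WT at D0, D1 CTL and D1 MR, 6 libraries against 6, to ask what loss of Setd2 did before late differentiation. At the level of loci, 0 of 10 passed limma, against 13.8% of all genes, and 3 had an unadjusted p under 0.05. Those were Fosl2 at 0.37 (95% interval 0.07 to 0.67), Maff at -0.32 (-0.59 to -0.05) and Atf3 at -0.54 (-1.05 to -0.03). The remaining differences lay between -0.24 and 0.13.

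Of 8 elements whose calls allowed an unadjusted p of 0.05 or lower, 3 were called by the exact permutation test, 1 higher and 2 lower in KO. The background was 18.8% of all regions tested, 4.98% higher and 13.8% lower. All 3 had an adjusted p of 0.0494, from an exact permutation p of 0.00926, the smallest that the test can give. The test treats the 6 KO libraries as independent, though they are 2 lines measured in 3 conditions, so the p may be too small. Lines were not permuted as units. Junb_e2 (8:84959847-84960199) lay inside Rnaseh2a, 16.9 kb below Junb, and was called in 6 of 6 KO and 0 of 6 WT libraries. Maff_e4 (15:79335185-79335474), 11.3 kb before the first Maff start, was called in 0 of 6 KO and 6 of 6 WT libraries. Mafk_e2 (5:139777067-139777250), 14.4 kb before the Mafk start, was likewise called in 0 of 6 KO and 6 of 6 WT libraries. The adjusted p was at the edge of the threshold. The count was 0 when peaks under a −log10 q-value of 5 were left out, and where a call needed 50% of the region covered. In both settings 0 of all regions passed, so that count is not particular to these elements. With the 20000 strongest peaks 2 of 4 passed, 1 of them among these 3, against 61.5% of 2633 regions. The 3 calls did not hold without either WT replicate, which leaves a single WT library per stratum, and all regions lost theirs.

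Junb_e2 was strong in line 1 and weak in line 2. Its −log10 p-value was 55.2 at D0, 32.6 in D1 CTL and 43.6 in D1 MR in line 1, and 5.93, 10.4 and 11.8 in line 2. KO D5 line 2 had it too, at 9.57 and 7.03, and 1 WT library did, WT D5 MR replicate 2, at 4.04. The surroundings of Junb moved with line 1. Over the 50 regions called in all 16 libraries within 1 Mb of Junb, its own elements left out, the median rank score was 1.06 higher than WT in line 1 and 0.06 higher in line 2. Of those 50 regions, 92% were higher in line 1. Over 5 Mb the medians were 1.03 and -0.03. The part of this in the Junb results was not tested.

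Maff_e4 and Mafk_e2 were called in no KO library at any day and in no WT library at D5, so both were also among the 7 elements with calls at WT D1 and none at D5. Maff_e4 was weak, with −log10 p-values of 4.81 and 10.5 at WT D0, 6.14 and 5.19 in WT D1 CTL and 9.36 and 4.87 in WT D1 MR. Mafk_e2 was stronger in the control medium, with 25.2 and 17.7 in WT D1 CTL, 6.13 and 7.38 in WT D1 MR, and 9.3 and 6.63 at WT D0. The deposited fold enrichment of Mafk_e2 was 8.43 and 6.75 in WT D1 CTL and 3.56 and 4.07 in WT D1 MR, without overlap in 2 libraries against 2. This difference was not tested, and the share of all regions separated in this way was not computed.

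Strength was compared over the 13007 regions called in all 16 libraries outside KO D5, of which 30 were AP-1 elements. In each library the regions were ranked by −log10 p-value and the ranks turned into normal scores, so that all libraries share a common scale. List length can still enter, through which regions are called in all 16 libraries and through the p-values that are ranked. This was not tested. A percentile below is the place among those 13007, with 100 the strongest. Of the 30, 5 differed between KO and WT by limma, 4 higher and 1 lower in KO. Of all regions 16.4% differed, 7.99% higher and 8.41% lower, so the count was at the background. Averaged per line and replicate, 0 of the 30 passed, and 0 of all 13007 regions did. This limma fit, like the one per locus, treats libraries of the same KO line as independent. Its intervals for KO against WT may thus be too narrow, and its p-values too small.

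Jund_e5, in the Jund gene, was among the weaker regions in WT, at percentiles of 3.2 to 10.7 in the 6 WT libraries. In KO it was at 63.1, 15 and 18.3 in line 1 and at 15.3, 18.6 and 29.8 in line 2, above every WT library at D0 and D1. The limma difference was 0.87 (95% interval 0.37 to 1.37, adjusted p = 0.0204). It was 1.01 with line 1 alone and 0.73 with line 2 alone. Around Jund the median rank score of 61 regions within 1 Mb was 0.07 higher than WT in line 1 and 0.10 higher in line 2.

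Mafk_e6 (5:139794945-139795445), in the Mafk gene, was lower in KO, with a difference of -0.99 (95% interval -1.61 to -0.36, limma adjusted p = 0.0329). Its percentiles in WT were 75.8 and 80.2 at D0, 64 and 53.9 in D1 CTL, and 88 and 89.2 in D1 MR. Line 2 was at 19.7, 15.8 and 17.9, below all of these, and line 1, at 62.1, 60.6 and 75.7, overlapped WT. The difference was -1.66 with line 2 alone and -0.31 with line 1 alone.

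The other 3 lay at neighbouring genes. Jund_e9 (8:70702420-70703205) within 1 kb of the start of Iqcn was higher in KO by 0.90 (limma adjusted p = 0.0372), with 1.27 in line 2 alone and 0.53 in line 1 alone. Maff_e11 (15:79368408-79369326) in Tmem184b was higher by 0.69 (limma adjusted p = 0.0398). On chromosome 15 the median rank score was 0.12 higher than WT in line 1 and 0.27 in line 2, and after centring each chromosome the Maff_e11 difference was 0.51 (limma adjusted p = 0.126). Junb_e22 (8:84990392-84990680) within 1 kb of the start of Hook2 was higher by 0.91 (limma adjusted p = 0.0488), with 1.44 in line 1 alone and 0.38 in line 2 alone, within the segment around Junb described above.

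**Figure D4:**
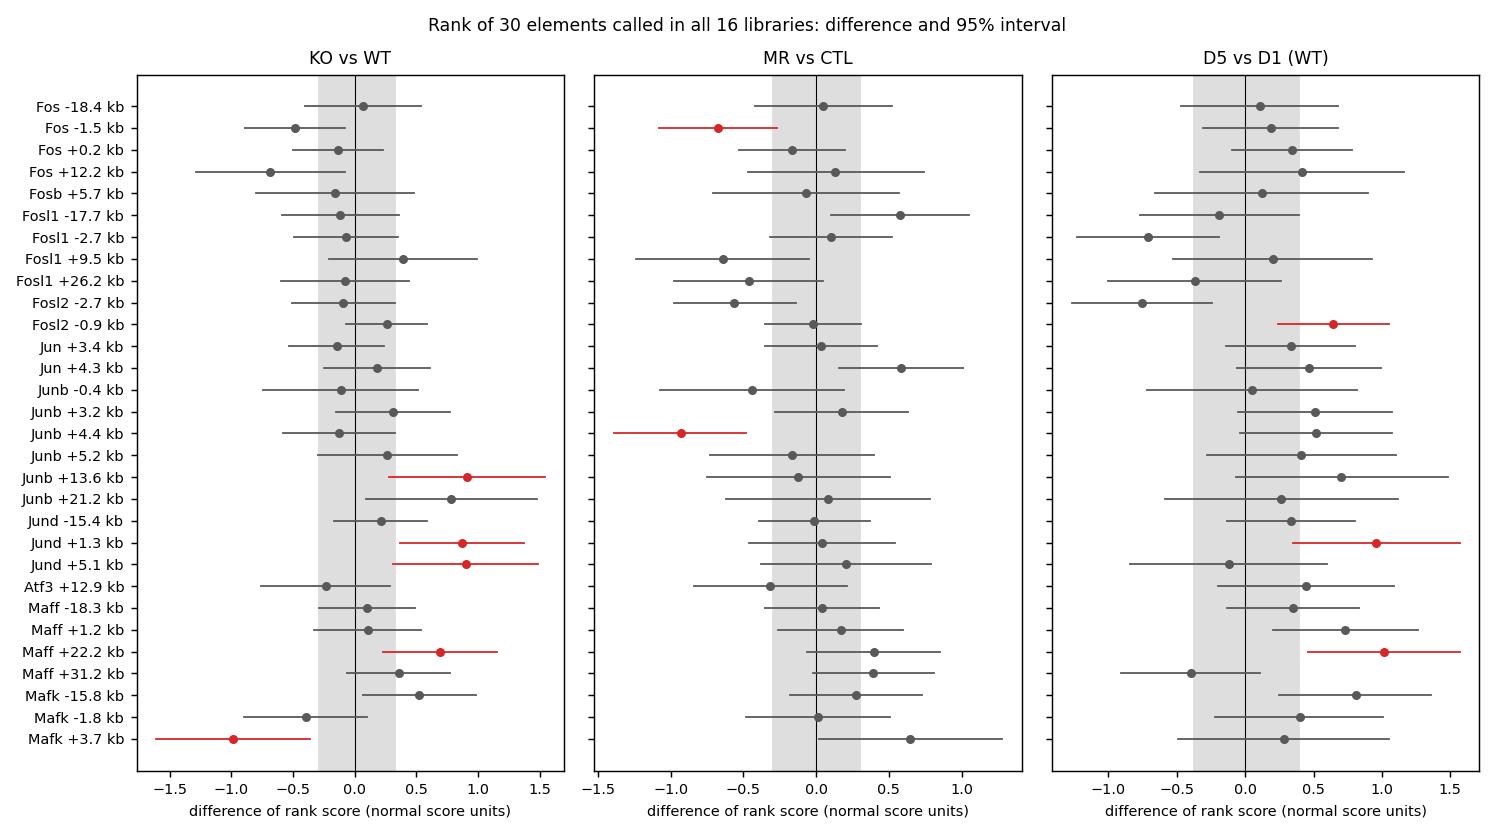
Difference of rank score (x axis, normal score units) of the 30 AP-1 elements called in all 16 libraries, named by gene and distance from its low-coordinate end (y axis), with 95% limma intervals, in 3 comparisons; red marks an adjusted p under 0.05 and the grey band holds the middle 50% of all 13007 regions. Red points number 5 for KO against WT, 2 for MR against CTL and 3 for D5 against D1.

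Methionine restriction was compared with control medium in WT D1, WT D5 and KO D1, 6 libraries against 6. No AP-1 element was called by the exact permutation test. It tested 3 of them and 1747 of all regions, with 0.0% called and 288 of all (16.5%) at an unadjusted p under 0.05. The 1 AP-1 element among these was Fosb_e3 (7:19295896-19296082), 6.71 kb below the gene and inside Rtn2. It was called in 6 of 6 MR libraries and in 1 of 6 CTL libraries, KO D1 CTL line 1 (exact permutation p = 0.0278, adjusted p = 0.168). In MR its −log10 p-values ran from 4.69 to 11. Outside this comparison it was called in both WT D0 libraries and in KO D0 line 1. At D5 the order in KO line 2 was the opposite, with a call in CTL (5.04) and none in MR. Mafk_e8 (5:139797918-139798106), in the Mafk gene, was called in all 4 WT MR libraries, in no KO MR library and in 0 of 6 CTL libraries, a pattern that did not reach an unadjusted p of 0.05. Outside the comparison, WT D0 replicate 2, KO D0 line 1 and KO D5 CTL line 2 (4.01) had it, and KO D5 MR line 2 did not.

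Per locus, 0 of 10 passed limma for medium, against 2.69% of all genes. Mafk had the smallest p, with a difference of 0.41 (95% interval 0.12 to 0.70, limma adjusted p = 0.158). At WT D5 alone Mafk had 4 and 3 elements in CTL and 8 and 7 in MR, a difference of 0.92 (limma adjusted p = 0.0304), where 12.8% of all genes passed. The CTL lists there held 22465 and 20847 peaks and the MR lists 39538 and 39263, so medium moved with list length.

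By rank, 2 of 30 elements fell in MR and 0 rose, and 7.43% of all regions changed, 3.41% lower. Junb_e16, the strongest Junb element, fell by 0.93 (95% interval -1.39 to -0.48, limma adjusted p = 0.0229). Its percentiles were 94.4 and 79.4 in WT D1 CTL, 85.2 and 74.9 in WT D1 MR, 98.4 and 98.6 in WT D5 CTL, and 70.1 and 90.5 in WT D5 MR. In KO at D1 they were 92.3 and 89 in CTL, and 57.4 and 53.8 in MR. CTL and MR overlapped in WT at D1 and did not in the other groups.

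Fos_e2, just before the Fos start, fell by 0.67 (95% interval -1.08 to -0.27, limma adjusted p = 0.0453). Its percentiles were 91 and 92.5 in WT D1 CTL against 74.7 and 64.4 in MR, and 89.9 and 94.7 in WT D5 CTL against 81.6 and 78 in MR. In KO they were 67.3 and 90.3 in CTL against 57.3 and 68.3 in MR, where each line was lower in MR. A replicate block paired the KO libraries by line and also the WT libraries by replicate number, which is no real pairing. With it, 6 of the 30 elements passed limma, as did 2386 (18.3%) of all 13007 regions. The count was near the background of that fit. Fosl1_e14 at -0.64 and Fosl2_e2 at -0.56 joined the 2 that were lower, and Jun_e6 at 0.59 and Mafk_e6 at 0.65 were higher. The genotype by medium interaction at D1 gave 0 of 30 and 0.0% of all regions in limma. At an unadjusted p under 0.05 there were 1 and 455.

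Between D1 and D5 in WT, 3 of 30 elements rose in rank by limma and 0 fell, against a background of 12.3% in both directions and 6.26% higher. Jund_e5 rose by 0.96 (95% interval 0.35 to 1.57, limma adjusted p = 0.0419), from percentiles of 3.9 to 8.9 at D1 to 20.8 to 38.1 at D5, without overlap. Fosl2_e3, before the Fosl2 start, rose by 0.65 (limma adjusted p = 0.0402), from 54.9 to 56.8 at D1 to 88.5 and 83.2 in D5 CTL and 69.8 in both D5 MR libraries. Maff_e11 rose by 1.02 (limma adjusted p = 0.024), from 36.9 to 65.6 at D1 to 64.9 to 91.9 at D5, with 1 pair of values in overlap. Ranked by fold enrichment, 6 of the 30 passed, against 2213 (17%) of all regions. After centring each chromosome, 4 passed, 2 higher and 2 lower, against 12.8% of all regions. Without either WT replicate, 0 of the 30 and 0 of all 13007 passed.

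Other genes of the pathway were read from 3 lists. A gene without an annotated start was read at both gene ends. The share of all genes with a peak at a start or end was not computed, so those counts have no background. Of 12 further AP-1 and small Maf partners, 6 had a peak at a gene start or end in all 18 libraries (Jdp2, Atf2, Atf7, Maf, Bach1, Nfe2l2), and Batf, Batf2 and Mafg had none in any. Bach2, a repressor that pairs with small Mafs, had one in 4 of 4 WT D1 libraries and in no other. Of 18 inputs (serum response factors, MAP kinases and their phosphatases), 12 were called in all 18. Among the known targets, Cd44, Hmox1 and Timp1 were called in all 18, and Mmp3, Mmp9 and Mmp13 were called in none. Elk3 and Plaur were called in all 12 early libraries, and at D5 in 0 of 2 WT CTL and 1 of 2 WT MR libraries. By elements per locus between D1 and D5 in WT, 6 of 11 partners, 11 of 18 inputs and 5 of 9 targets fell in limma and 0 rose, against the 45.5% of all genes that fell. KO against WT gave 1, 3 and 0 lower, against 11.6% of all genes. MR against CTL gave 0, 1 and 1 higher, against 2.46% of all genes.

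Over the 18 libraries, the genes on other chromosomes whose number of called elements followed that of Junb most closely were Nop53 (Pearson r = 0.944), Ehd2 (0.924) and Snx10 (0.923), out of 16189 genes. The correlation of the Junb count with list length was 0.764. All counts share library and depth, so the values describe these libraries only.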

How the data were processed

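ATAC-seq peak lists, 1 per library, were deposited for 20 C2C12 libraries in 10 groups of 2. Peaks were called per library, not on pooled samples, by the file layout. The authors' lists are on GRCm38, per the submitters' processing notes; the aligner, read filters and peak caller are not given in the sources used here. The deposited columns are an integer score, a fold enrichment (ratio), and the −log10 p-value and −log10 q-value. No peak had a −log10 q-value below 1. Fold and p are the authors' own values and served only to rank or describe peaks. Read totals were not used here; list length is the only measure of depth given, and its number limits the precision.

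Peaks sharing at least 1 bp were merged. A library called a region where it had a peak in it, and the largest −log10 p-value stood for the region. Genes and spans came from RefSeq on GRCm38.p6. Calls were tested by an exact permutation test within strata, two-sided, with Benjamini-Hochberg adjustment over all regions able to reach 0.05. Ranks and counts per locus (pseudocount 1) were fitted with limma 3.58.1 (R 4.3.3) over the 16 libraries outside KO D5, and adjusted over the whole table. Other steps used Python 3.11.15, pandas 2.3.3 and scipy 1.17.1.

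The text names the 10 genes, the element at each start or gene end, each element past a threshold or separated between groups, and up to 3 further steady elements per gene. The members and lists were chosen with earlier results of these data known; a few genes of the lists are not reported here by name. KO libraries with the same number come from the same line, and their deviations from group means correlated at 0.365 to 0.553 over 13007 regions; WT replicate numbers correlated at -0.055 to 0.135 and pair nothing. On simulated data with 200 genes lowered 4-fold for D5 against D1, the locus fit over 17452 genes recovered 112 with 29 false calls, and with a mean over 1 element, over 14090 genes, 174 with 9. The 200 were drawn only from genes with many elements, and the counts were independent between libraries. Recovery at loci with few elements, such as Atf3 and Fosl2 (medians of 1 and 2 called elements), was not measured. Alternatives were stricter peaks, equal list lengths, other windows (10 and 50 kb), pseudocount 0.5, other ranks, chromosome centring, left-out replicates and a replicate block.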

Additional observations from a re-analysis of the deposited data

Results flagged for a closer look

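Over all 10 loci, the number of called elements at D1 differed between MR and CTL by a mean of 14 in WT and of -11.5 in KO. Both MR libraries lay above both CTL libraries in WT and below both in KO, but the difference between the genotypes was not tested. WT had 74 and 62 elements in CTL and 89 and 75 in MR, and KO had 75 and 69 in CTL and 62 and 59 in MR. The lists moved the same way, from 60173 and 45545 to 69881 and 57676 peaks in WT and from 61045 and 46664 to 48460 and 35201 in KO. The part of list length in this was not tested.

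The KO D5 libraries of line 2, which the tests of genotype leave out, held 3 Fosl1 elements that no WT D5 library had. The lower of the −log10 p-values in CTL and MR was 5.05 for Fosl1_e4, 6.85 for Fosl1_e9 and 8.64 for Fosl1_e10.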

How the results depend on the processing

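For calls, KO against WT gave 3 elements. The count was 0 without peaks under a −log10 q-value of 5 and 0 with 50% of the region covered, and 0 of all regions passed in both. With the 20000 strongest peaks it was 2 of 4, against 61.5% of all regions. MR against CTL gave 0, and with a WT replicate left out no p of 0.05 could be reached. That 0 did not hold with KO line 1 left out, where each KO arm kept 1 library. D5 against D1 gave 7 separated elements, 0 with the 20000 strongest peaks, 9 to 17 with a WT replicate left out, and 0 over all 20 libraries, where both genotypes must separate; the exact permutation test, which those libraries allow, then called 9 of 15, and 10687 of all 16153 regions. By rank, KO against WT gave 5 elements, 3 after chromosome centring, 0 with means per line and 0 to 10 with 1 replicate left out. MR against CTL gave 2, 1 ranked by fold enrichment, 1 with regions called in at least 14 of 16 libraries and 0 to 10 with 1 replicate left out. D5 against D1 gave 3, 6 ranked by fold enrichment and 0 to 8 with 1 replicate left out. After chromosome centring D5 against D1 gave 4, 2 higher and 2 lower. The interaction gave 0 throughout. Per locus, KO against WT gave 0, and 2 with a 50 kb window (14.8% of all genes). MR against CTL gave 0, and 1 with a 10 kb window (3.55% of all genes). D5 against D1 gave 6. It gave 0 with the 20000 strongest peaks (7.23% of all genes) and 3 with a 10 kb window (38.7% of all genes). The Jund locus (0.54) and Mafk locus (0.08) turned upward with the 20000 strongest peaks. Where an arm kept 1 library, it was assumed to vary like the other groups. Counts over all features moved there as well, so the counts with 1 replicate left out are not read as results about AP-1. No AP-1 call of the main tests held without either WT replicate. Of 145 values of 16 named results under alternatives, 84 kept direction and call, 59 lost the call and 2 reversed. Except for list length and left-out libraries, the cause was not tested.

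With the replicate block, MR against CTL gave 6 elements by rank, and 2386 of all 13007 regions. The block there paired KO libraries by line and WT libraries by replicate number. For D5 against D1 it gave 7 elements by rank, with 2973 of 13007 regions, and 7 loci, with 10066 of 17452 genes, where the WT libraries share only a number. It changed no other count.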
